A study of Homo sapiens with 6 samples.

Results

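The 9 genes described here specify the machinery of MHC class I antigen presentation: the heavy chains HLA-B, HLA-C, HLA-E and HLA-F, the light chain B2M, the peptide transporter subunits TAP1 and TAP2, the loading factor TAPBP (tapasin) and the transcriptional activator NLRC5. They were chosen by symbol, and each symbol matched 1 of the 25706 gene rows of the deposited table. Messenger RNA was measured by oligo(dT)-selected sequencing in MDA-MB-231, an established human line of triple-negative breast cancer. The 2 groups, of 3 libraries each, are control cells and cells made to overexpress the fragment of a glycine tRNA named tsRNA-Gly-5-0006. The labels give no vector, dose, time or clone, and do not describe what the controls carried. Nor do they tie the replicates to separate cultures, so that p-values may measure only the spread between these libraries. In bulk RNA, fewer cells with a transcript and less of it per cell cannot be told apart. The small RNA itself cannot be read from such libraries.

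Class I molecules carry peptides from proteins made inside a cell to its surface, where CD8 T cells and natural killer cells inspect them. The proteasome cuts the peptides, the TAP transporter moves them into the endoplasmic reticulum, and tapasin helps to load them onto a heavy chain held together by beta-2 microglobulin. Interferons induce most of these genes, and NLRC5 acts at conserved promoter elements called the X and Y boxes. In breast cancer, low class I expression is known as a route by which tumour cells evade T cells.

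RefSeq promoters were at hand for 7 of the 9 genes (HLA-E and NLRC5 had no entry). Those of a heavy chain, the light chain, a transporter subunit and tapasin are shown, to set side by side which interferon, X2 and Y box letters each holds. Each run is the 250 bases before the RefSeq start, read 5′ to 3′ on the strand of the gene in GRCh38.p14. Capitals mark 3 motifs found on either strand: AANNGAAA (the core recognised by interferon regulatory factors), TGACG (the core of the X2 box) and ATTGG (the CCAAT core of the Y box). Adjoining or overlapping matches appear as 1 run of capitals.
HLA-B (chr6:31357180-31357429, minus strand): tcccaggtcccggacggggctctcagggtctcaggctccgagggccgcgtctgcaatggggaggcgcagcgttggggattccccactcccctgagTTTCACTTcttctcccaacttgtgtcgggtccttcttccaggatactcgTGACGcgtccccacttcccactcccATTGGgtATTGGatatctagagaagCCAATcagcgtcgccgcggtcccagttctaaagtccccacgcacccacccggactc
B2M (chr15:44711267-44711516, plus strand): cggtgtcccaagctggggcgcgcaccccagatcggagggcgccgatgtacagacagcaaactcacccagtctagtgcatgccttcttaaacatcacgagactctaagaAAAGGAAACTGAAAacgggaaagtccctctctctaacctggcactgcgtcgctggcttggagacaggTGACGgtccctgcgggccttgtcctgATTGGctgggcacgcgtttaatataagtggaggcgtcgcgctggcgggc
TAP1 (chr6:32853705-32853954, minus strand): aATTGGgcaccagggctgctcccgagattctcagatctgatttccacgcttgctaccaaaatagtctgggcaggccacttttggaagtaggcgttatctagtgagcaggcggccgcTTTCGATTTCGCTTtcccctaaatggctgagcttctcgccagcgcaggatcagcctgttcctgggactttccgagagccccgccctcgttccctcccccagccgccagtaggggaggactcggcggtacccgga
TAPBP (chr6:33314079-33314328, minus strand): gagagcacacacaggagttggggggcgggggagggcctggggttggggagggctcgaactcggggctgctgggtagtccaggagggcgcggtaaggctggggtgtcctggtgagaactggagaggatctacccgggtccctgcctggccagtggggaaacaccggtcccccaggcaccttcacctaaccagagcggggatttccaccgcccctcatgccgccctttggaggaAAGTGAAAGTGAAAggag

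In all, 5 motif forms were searched on both strands, and they were chosen with these promoters in view. The first search used the longer interferon element GAANNGAAA, which was found in 3 of the 7 promoters (HLA-B, HLA-C and TAP2) and in 6.82% of 27305 RefSeq promoters. The shorter core AANNGAAA, which every GAANNGAAA contains, was taken only after that result was seen. It was found in 7 of the 7, against 20.6% of all promoters, so its count is the product of a choice and supports nothing. The kappaB site, searched as GGG and CC with any 5 bases between them, was found in 6 of the 7, against 53.8%, and is not capitalised. TGACG was found in 4 of the 7 (HLA-B, HLA-C, B2M and TAP2), against 21.6%, and ATTGG in 5 of the 7, against 33.1%. Neither was found in the TAPBP window, and TAP1 held no TGACG and a single ATTGG, at -249. The longer element with TGACG and ATTGG was held by HLA-B and HLA-C (2 of 7, against 0.414%), and the shorter core with both by HLA-B, HLA-C and B2M (3 of 7, against 1.33%). In HLA-B the interferon core begins at position -155 from the RefSeq start and in HLA-C at -151, while in TAPBP it begins at -18 and again at -12. Such a match describes the letters and is not evidence of a bound factor.

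The deposited counts summed to between 54371226 and 74586916 per library, and the test covered 15951 genes. Levels are given as the deposited FPKM (fragments scaled by transcript length and by library size). The lengths used are not given, so a comparison of different genes rests on that scaling. The label of the line was checked on its markers. Of the 7 markers listed as present, VIM, the mesenchymal filament gene, had 365 to 460 FPKM, AXL 36.4 to 65.4, CD44 34.4 to 49.6, CAV1 18.9 to 50.5, ANXA1 4.01 to 7.32 and MSN 17.2 to 27.2, but EGFR had only 0.580 to 0.849. Of the 7 listed as absent, ESR1 (oestrogen receptor) and FOXA1 had no row among those analysed. PGR (progesterone receptor) and CDH1 (E-cadherin) stayed at or under 0.0424 FPKM, while GATA3 had 0.527 to 0.909 and ERBB2 5.12 to 6.39. KRT8, an epithelial keratin that the list had placed among absent markers, had 556 to 656 FPKM. Of 14 fibroblast markers 13 had a row. Their FPKM summed to between 5.57 and 6.50 in the controls, against 23.0, 6.60 and 4.22 in the overexpressing libraries by replicate number, with COL3A1 at 1.80 in overexpression 1 and listed at 0 in the other 5 libraries. Of 13 leukocyte and endothelial markers 9 had a row, summing to 28.8 to 33.9 FPKM in control and 24.4 to 31.0 in overexpressing libraries. Most of that sum came from CD14 and CD68, while PTPRC, the common leukocyte antigen, was listed at 0 in 5 libraries and had 0.00549 FPKM in overexpression 1. What part these other transcripts have in the class I values was not tested.

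Heavy chain transcripts were abundant in control cells. HLA-E, a non-classical heavy chain known to display leader peptides to natural killer cell receptors, had 358 ± 5.15 FPKM (SD, n = 3), which ranks 164 among the 25706 rows. HLA-C, a classical heavy chain, had 279 ± 8.52 FPKM, and HLA-B, the most polymorphic classical heavy chain, 214 ± 9.77 FPKM. B2M, the light chain that pairs with every one of them, had 54.1 ± 7.44 FPKM. The summed level of the 4 heavy chains was 16.3 ± 2.25 times that of B2M in the controls, and 13.7 ± 4.27 times after overexpression (SD, n = 3). TAP1 had 36.5 ± 2.79 FPKM and its partner TAP2 5.96 ± 0.507, although the 2 proteins form a heterodimer. TAP1 over TAP2 was 6.17 ± 0.901 in control and 6.70 ± 0.904 in overexpressing libraries. The genes in these ratios differ in the guanine plus cytosine content of their longest transcript. It is 40.6% for B2M against 54.8% to 62.7% for the heavy chains, and 49.1% for TAP2 against 57.5% for TAP1. Whether this content affects levels compared between genes was not tested, so the ratios may not be those of transcript numbers. HLA-F, a non-classical heavy chain, had 20.2 ± 0.358 FPKM, TAPBP 9.97 ± 1.34 and NLRC5 1.28 ± 0.0680.

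The order of the levels in FPKM was HLA-E, HLA-C, HLA-B, B2M, TAP1, HLA-F, TAPBP, TAP2 and NLRC5. In control, each gene lay above the next in every library, with no overlap of the ranges. In overexpressing libraries the ranges of HLA-C and HLA-B overlapped, though the FPKM of HLA-C was above that of HLA-B in all 6 libraries when compared within a library. All other neighbours stayed apart over all 6 libraries. The deposited counts of HLA-B and HLA-C had the opposite order in all 6 libraries. They were 61618 to 77628 for HLA-B and 41147 to 59055 for HLA-C. If the FPKM come from these counts, a higher count with a lower FPKM means that the scaling treated HLA-B as longer than HLA-C. The longest transcripts in GENCODE have the opposite order (1547 bases for HLA-B against 1880 for HLA-C). The deposited row of HLA-B spans 31353872 to 31367067, and that of HLA-C 31268749 to 31272130. The order of HLA-C and HLA-B thus depends on the lengths behind the FPKM, which are not given. The smallest step in control was from HLA-E to HLA-C, 1.28 times, and the largest from TAP2 to NLRC5, 4.65 times.

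**Figure D1:**
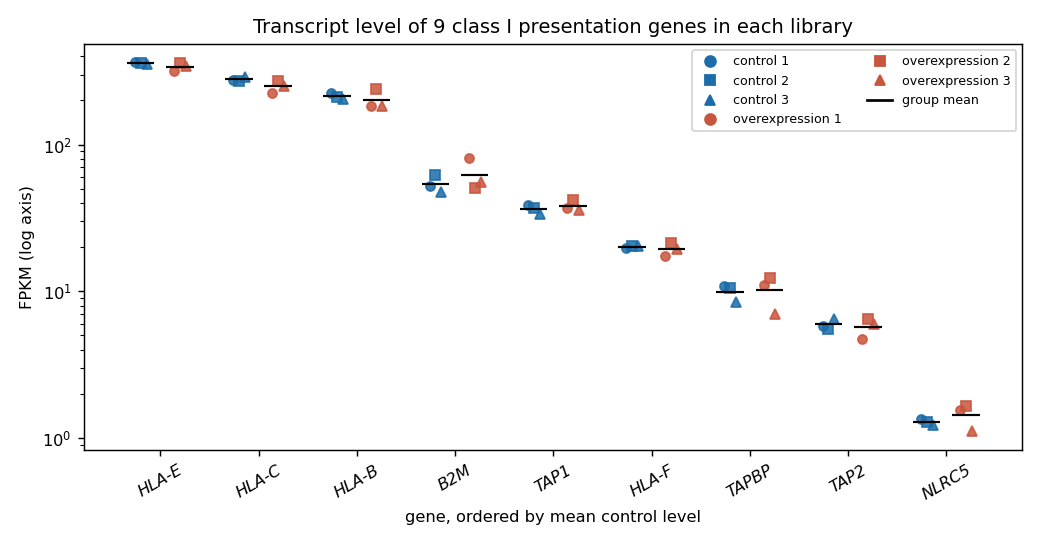
FPKM (log axis) of the 9 genes in each of the 6 libraries, ordered by mean control level; marker shape gives the replicate number, colour the group, and the short line the mean of 3 libraries. The genes span from 1.11 FPKM for NLRC5 to 363 for HLA-E, and the difference between genes exceeds the difference between groups.

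The comparison asks whether class I transcripts differ between overexpressing and control cells. None of the 9 passed. In edgeR's quasi-likelihood test, adjusted over all 15951 genes, 0 of 9 had an adjusted p under 0.05, where the share of all tested genes was 0% (0 genes). At an unadjusted p under 0.05 the members numbered 0 of 9 and all genes 611, which is 3.83%. DESeq2 passed 13 genes of the table and limma on log2(FPKM + 1) 0, with 0 of the 9 among either. Of the 9 log2 fold changes, 6 were negative and 3 positive, with a median of -0.09. The median over all tested genes was 0.02, and it was -0.03 over those averaging 10 FPKM or more. Without overexpression 1 the members' median was -0.04, again with 6 negative and 3 positive and 0 of 9 passing, beside 4 of 16213 genes (0.0247%).

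HLA-E had 363, 358 and 353 FPKM in the 3 controls, by replicate number, against 316, 360 and 342 after overexpression. The lowest value was that of overexpression 1, and the groups overlapped. Its log2 fold change was -0.12 (95% CI -0.36 to 0.12, adjusted p 0.9998 by edgeR), and -0.06 without overexpression 1.

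HLA-C had 277, 272 and 289 FPKM in control and 224, 272 and 252 in overexpressing libraries. It was the 1 gene of the 9 whose groups did not overlap in FPKM, a separation found for 8.22% of all tested genes (15.5% without overexpression 1). The margin was narrow, 272.32 in control 2 against 271.9 in overexpression 2, and on the TMM-scaled log2 scale overexpression 3 lay above control 2. Its log2 fold change was -0.21 (SE 0.11, 95% CI -0.47 to 0.06, adjusted p 0.994 by edgeR). The value was -0.12 without overexpression 1.

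HLA-B had 225, 212 and 206 FPKM in control and 185, 238 and 185 in overexpressing libraries. Overexpression 2 was the highest of all 6, while overexpression 1 and 3 were below every control. The log2 fold change was -0.13 (SE 0.11, 95% CI -0.40 to 0.14), and -0.05 without overexpression 1. HLA-F had 19.8, 20.4 and 20.4 FPKM in control and 17.4, 21.3 and 19.6 in overexpressing libraries. Its lowest value was also in overexpression 1, and its highest was in overexpression 2. The log2 fold change was -0.10 (SE 0.10), and -0.01 without overexpression 1. All 4 heavy chains thus had negative values with all 6 libraries, under each scaling of counts tried. Their summed FPKM was 872 ± 11.9 in the controls, against 810 ± 75.5 after overexpression (SD, n = 3), the latter being 742, 891 and 798 in overexpression 1, 2 and 3.

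B2M (chromosome 15, 44711358 to 44718145) went the other way. It had 52.6, 62.1 and 47.4 FPKM in control and 80.6, 50.4 and 55.7 in overexpressing libraries. The value of 80.6 stood apart in overexpression 1, and the remaining overexpressing libraries lay within the control range. The log2 fold change was 0.16 (SE 0.18, 95% CI -0.26 to 0.58, adjusted p 0.9998 by edgeR), and it was -0.04 without overexpression 1 and -0.01 with a GC offset per library. The ratio of summed heavy chains to B2M was 16.8, 13.9 and 18.3 in control and 9.21, 17.7 and 14.3 in overexpressing libraries, so the groups overlapped and overexpression 1 was lowest.

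Of the transporter genes, TAP1 had 38.9, 37.1 and 33.4 FPKM in control and 36.8, 41.6 and 35.8 in overexpressing libraries. The groups overlapped, with the highest value in overexpression 2. TAP1 had the narrowest interval of the 9, a log2 fold change of 0.02 (SE 0.09, 95% CI -0.19 to 0.22), which corresponds to 0.879- to 1.17-fold. It was 0.06 without overexpression 1, and negative with upper-quartile scaling (-0.01). TAP2 had 5.82, 5.53 and 6.52 FPKM in control and 4.76, 6.52 and 5.98 in overexpressing libraries. Overexpression 1 was the lowest, and the log2 fold change of -0.09 (SE 0.15) became 0.04 without it.

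TAPBP had 10.8, 10.6 and 8.43 FPKM in control and 11.1, 12.4 and 7.002 in overexpressing libraries. Control 3 and overexpression 3 were low and the other 4 libraries high, so the spread lay within the groups. The log2 fold change was -0.03 (SE 0.17), with -0.09 without overexpression 1, and 0.13 without overexpression 3. NLRC5, the activator of class I promoters, had 1.35, 1.28 and 1.22 FPKM in control and 1.54, 1.65 and 1.11 in overexpressing libraries. Overexpression 3 was the lowest of the 6 and overexpression 1 and 2 the highest. The log2 fold change was 0.10 (SE 0.14, 95% CI -0.22 to 0.42), and 0.06 without overexpression 1.

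**Figure D2:**
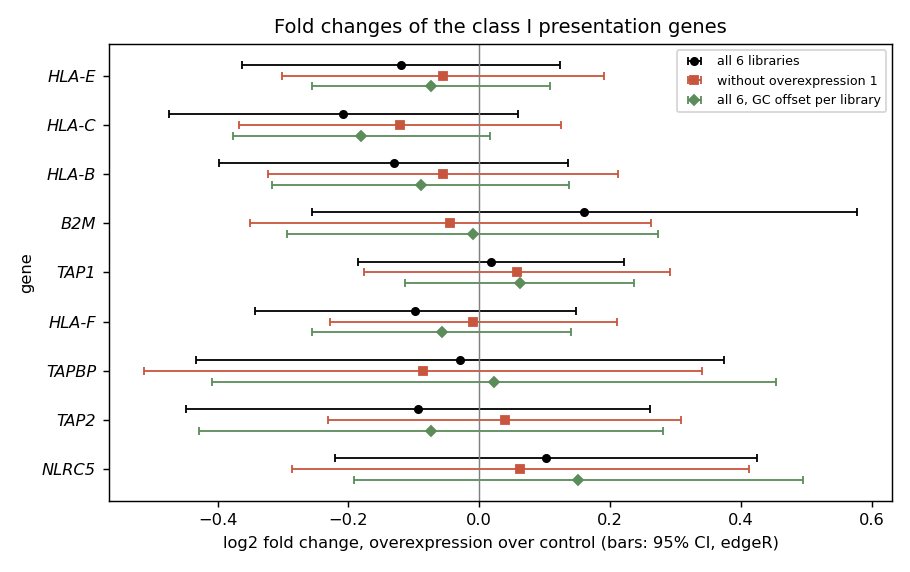
Log2 fold change of each gene, overexpression over control, with its 95% confidence interval from edgeR, for all 6 libraries, without overexpression 1, and for all 6 with a GC offset per library. Every interval includes 0, and B2M moves from 0.16 to -0.04 when overexpression 1 is left out.

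The 95% confidence intervals give the folds compatible with these libraries and are not detection limits. With all 6 libraries, the lower bounds ran from 0.720-fold (HLA-C) to 0.879-fold (TAP1). The upper bounds ran from 1.04-fold (HLA-C) to 1.49-fold (B2M). These p-values above the threshold do not show that the levels were the same.

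Libraries differed more than groups did. Relative to the mean of the 6 libraries on the TMM-scaled log2 CPM scale, 6 of the 9 genes were below it in overexpression 1, with deviations from -0.36 (TAP2) to 0.43 (B2M). The median deviation of the 9 was -0.21 in overexpression 1 and between 0.02 and 0.09 in each of the other 5 libraries. In FPKM, 4 genes (HLA-C, HLA-E, HLA-F and TAP2) had their lowest value in overexpression 1, and 5 had their highest in overexpression 2. Overexpression 3 held the lowest values of HLA-B, TAPBP and NLRC5.

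**Figure D3:**
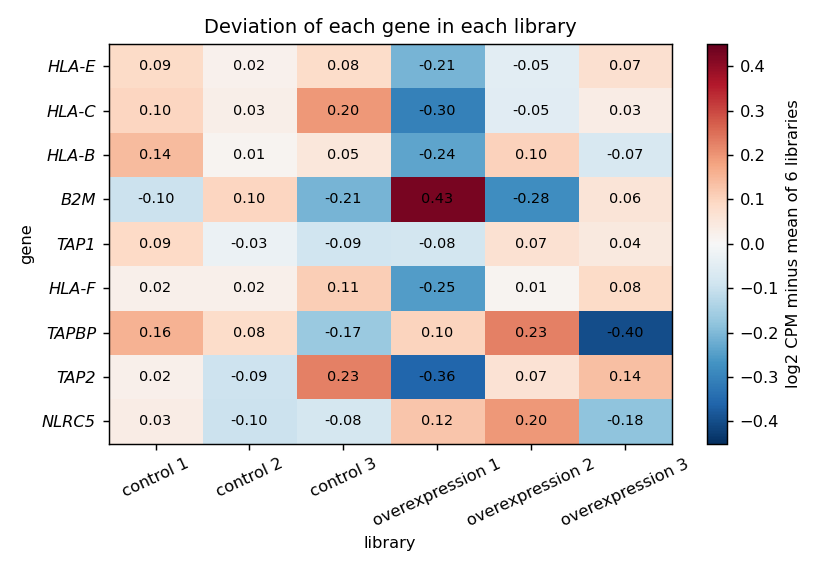
Deviation of each gene in each library, as log2 CPM minus the mean of the 6 libraries; rows are genes and columns libraries. In overexpression 1 the 4 heavy chains lie between -0.21 and -0.30 and B2M at 0.43, and TAPBP reaches -0.40 in overexpression 3.

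Overexpression 1 also stood apart among transcripts of low GC content (guanine plus cytosine). Of 7870 genes averaging 1 FPKM or more with a GC value, ranked into 5 equal bins, the bin with the lowest GC content had a median deviation of 0.31 in that library and of -0.14 to -0.02 in the other 5. In the bin with the highest GC content, the median of -0.10 in overexpression 1 was close to the -0.09 of overexpression 2, with -0.04 to 0.07 in the controls and 0.14 in overexpression 3. The longest B2M transcript in GENCODE 29 has 40.6% GC, within the lowest bin, whereas those of HLA-B, HLA-C, HLA-E and HLA-F have 59.0%, 62.7%, 54.8% and 57.7%. TAP2 has 49.1%, and TAP1, TAPBP and NLRC5 lie between 57.5% and 58.1%. With an offset for GC content in each library, chosen after seeing the data, 0 of 9 passed and the median of the 9 was -0.06. In that fit HLA-C had a log2 of -0.18 (95% CI -0.38 to 0.02), HLA-E -0.07 and HLA-B -0.09. TAPBP changed sign to 0.02, as B2M did. In overexpression 1, TAP2 (49.1% GC, in the bin next to the lowest) had the lowest deviation of the 9. Whether GC content sets the values of single genes in that library was not tested.

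**Figure D4:**
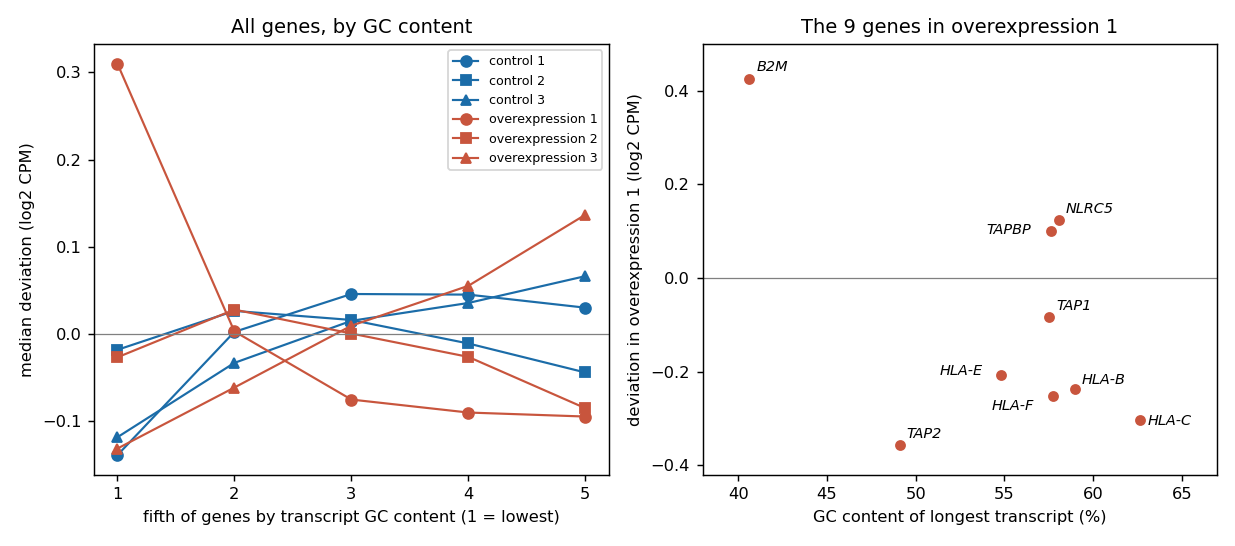
Left, median deviation (log2 CPM) of all genes in each library by bin of transcript GC content (5 bins); right, deviation of the 9 genes in overexpression 1 against the GC content of their longest transcript (%). Overexpression 1 reaches 0.31 in the lowest bin, where B2M (40.6% GC, deviation 0.43) also lies.

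Class I genes resemble each other, and the sources used here do not give how reads that match several genes were counted or whether strand was used. Of the stretches of 50 bases in the longest GENCODE 29 transcript, 2.54% in HLA-B, 6.39% in HLA-C, 5.13% in HLA-E and 1.70% in HLA-F occur in a transcript of another gene. None do in B2M or NLRC5 (0 each), and 35.8% do in TAP2. GENCODE 29 held 96.2% of the tested genes of the deposited table, so these shares may miss stretches shared with the rest. On the strand of TAP2 (chromosome 6, 32821833 to 32838739) the table holds a further row, ENSG00000250264 (32813767 to 32838822), with 6.60, 8.25 and 7.52 FPKM in control and 7.85, 9.88 and 11.6 in overexpressing libraries. Its log2 fold change was 0.36 (SE 0.19, adjusted p 0.994 by edgeR), opposite in sign to that of TAP2, so the level of TAP2 alone is uncertain. TAP1 (32845209 to 32853717) lies within PSMB9 (32844136 to 32859851) on the opposite strand, which had 37.0 to 46.9 FPKM. Without a stated strand, reads of the 2 cannot be told apart over their shared bases.

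Class I pseudogenes showed the same limit. HLA-H, annotated as a pseudogene, was listed at 190 to 220.3 FPKM, near the level of HLA-B, and 22.3% of its stretches of 50 bases occur in other genes. HLA-J was listed at 15.1 FPKM in control 3 and 16.3 in overexpression 2, and at 0.175 to 0.668 in the other 4 libraries. The high libraries belong to different groups. A row on the same strand that spans HLA-J, ENSG00000290574, had 10.5 to 33.0 FPKM in the 6 libraries. Of 12 listed pseudogenes 6 had a row and 4 could be tested, with 0 passing and a median log2 of 0.00 (2 positive), or 0.23 (3 positive) without overexpression 1. HLA-H had a log2 of -0.14 (SE 0.10), HLA-K 0.08 (SE 0.11) and HLA-L 0.25 (SE 0.28). For HLA-J it was -0.07 (SE 1.78), or 0.49 without overexpression 1.

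Around the 9 genes, no gene of the lists on the wider pathway passed the test (0 higher and 0 lower in each list, with and without overexpression 1). For peptide loading and trimming, 10 of 10 genes could be tested, of which 7 were positive, with a median of 0.05 (7 and 0.06 without overexpression 1). ERAP2, an aminopeptidase that trims peptides in the endoplasmic reticulum, had 0.0589, 0.0889 and 0.0375 FPKM in control and 1.06, 0.0630 and 0.0594 in overexpressing libraries. Overexpression 1 alone was high, and the log2 of 2.54 (SE 1.07) became -0.06 without it. CANX, the chaperone calnexin, had 0.28 (SE 0.17), which was 0.06 without that library. TPP2, a cytosolic peptidase at no more than 0.137 FPKM in any library, had 0.51 (SE 0.29), or 0.19 without overexpression 1. TAPBPL, a relative of tapasin, had -0.34 (SE 0.27), or -0.13 without overexpression 1. For the 10 genes of the proteasome, 4 were positive and the median was -0.01, but without overexpression 1 it was 0.04 with 6 positive. PSMB8, an immunoproteasome subunit, had a log2 of 0.04 (SE 0.10), and PSMB10, another, of -0.11 (SE 0.12). PSME1, a subunit of the proteasome activator, had -0.10 (SE 0.08). POMP, a proteasome assembly factor, had 0.13 (SE 0.15), or -0.22 with the GC offset.

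Regulators of class I transcription and interferon signalling had no gene past the test either. Of 16 transcriptional regulators 10 were positive, and the median was 0.09 (9 and 0.04 without overexpression 1). IRF1, an activator of class I promoters, had a log2 of -0.13 (SE 0.09). CREB1 and ATF1, factors of the X2 box, had 0.28 (SE 0.22) and 0.28 (SE 0.24), which were -0.04 and -0.12 with the GC offset. The level of CREB1 was low, at no more than 0.279 FPKM in any library. Of 10 interferon receptor and kinase genes 9 could be tested, with 4 positive and a median of -0.03, whereas 6 were positive with a median of 0.08 when overexpression 1 was left out. IFNAR1, a subunit of the type I interferon receptor, had a log2 of 0.72 (SE 0.36) and JAK1, a kinase of interferon receptors, of 0.80 (SE 0.42). Without overexpression 1 these were 0.17 and 0.10. TYK2, the kinase known to bind IFNAR1, had -0.03 (SE 0.09), and IFNAR2, the subunit known to bind JAK1, had 0.19 (SE 0.24). SOCS3 and PTPN2, negative regulators, had -0.16 (SE 0.11) and 0.34 (SE 0.23).

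Among 10 genes of class I quality control and turnover, 7 were positive and the median was 0.05, compared with 6 and 0.02 without overexpression 1. For NBR1, an autophagy receptor, the log2 was 0.56 (SE 0.33), and 0.06 without overexpression 1. SUSD6 had 0.50 (SE 0.43) at no more than 0.423 FPKM in any library, IRGQ -0.28 (SE 0.19) and SYVN1, a ubiquitin ligase of the endoplasmic reticulum, -0.08 (SE 0.10). Of 13 class I-like genes and ligands of the receptor NKG2D, 10 could be tested and 9 were negative, with a median of -0.12, or -0.08 with 7 negative without overexpression 1. MICB, a stress-induced NKG2D ligand, had a log2 of -0.17 (SE 0.08, adjusted p 0.994 by edgeR), and was -0.14 without overexpression 1. RAET1G and ULBP3, ligands of the same receptor, had -0.32 (SE 0.16) and -0.55 (SE 0.37), and FCGRT, the neonatal Fc receptor, -0.12 (SE 0.10). The level of ULBP3 was low, at no more than 0.320 FPKM in any library.

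Class II genes, which present peptides from outside the cell and share X and Y box control with class I, were also transcribed in these cells. CD74, the invariant chain, had 194, 179 and 165 FPKM in the controls, against 167, 171 and 147 after overexpression, so the groups overlapped. HLA-DRA, a class II alpha chain, had 31.2 to 37.2 FPKM in the controls and 25.6 to 37.2 after overexpression. Not all listed genes were this high: HLA-DQA1, HLA-DQB1, HLA-DOA and CIITA had no more than 0.429 FPKM in any library. All 12 listed genes could be tested, of which 10 were negative, with a median of -0.14, or -0.13 with 9 negative without overexpression 1. CD74 had a log2 of -0.20 (SE 0.09), HLA-DPB1 -0.18 (SE 0.09), HLA-DPA1 -0.14 (SE 0.07) and HLA-DMB -0.15 (SE 0.11), none with an edgeR adjusted p below 0.994. HLA-DPA1 and HLA-DPB1 overlap each other on opposite strands, so their values are not independent.

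**Figure D5:**
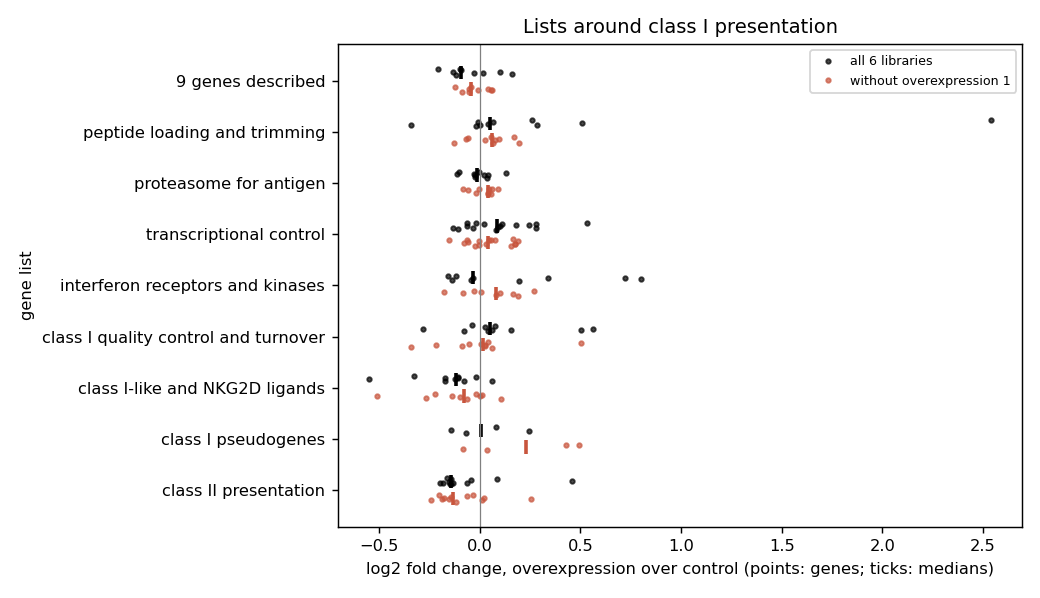
Log2 fold change (overexpression over control) of each tested gene in the 9 genes and 8 lists around them, with all 6 libraries and without overexpression 1; points are genes and ticks are list medians. The point at 2.54 is ERAP2, which moves to -0.06 without overexpression 1.

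Outside these lists, the genes whose profile over the 6 libraries lay closest to the median profile of the 9 were LAYN, PBXIP1, TNKS1BP1, KCTD5 and WDR55. Their root mean square difference from it was 0.0207 to 0.0244 log2 CPM, against a median of 0.139 over the 3117 candidates, which averaged 10 FPKM or more. With 6 libraries and that many candidates, close matches arise by search alone.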

How the data were processed

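Per the submitters' processing notes, cutadapt 1.9, HISAT2 2.0.4, StringTie 1.3.4d and edgeR were used with hg38; annotation release, strandedness and counting rule are not given in the sources used here. The deposited table holds expected counts, whole numbers not scaled between libraries, and FPKM values computed by the authors for transcript length and library size. Of counts from 2 to 40, 30.5% are multiples of 4 (25.6% if evenly spread), so they may not be tallies of fragments, and no counting intervals are given.

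Members, lists and promoter motifs were chosen with earlier results of these data known. Genes were tested with edgeR 4.0.16 (quasi-likelihood, 2-sided, TMM, filterByExpr with minimum count 10, group as the only term) in R 4.3.3. P-values were adjusted by Benjamini-Hochberg over all tested genes at 0.05. Standard errors and intervals come from that fit, and means ± SD are of the deposited FPKM. Named are the 9 genes, in each list up to 4 genes by lowest p, and the 5 nearest profiles. Overlapping rows, marker genes, HLA-DRA, HLA-DQA1, HLA-DQB1, HLA-DOA, CIITA, TYK2 and IFNAR2 were named after seeing values. The result of 1 gene that this rule names is not reported here. Where a symbol repeats, the row with the highest mean FPKM was used. DESeq2 1.42.0 and limma 3.58.1 served as alternatives. Promoter motifs (5 forms, both strands) were sought in the 250 bases before each RefSeq start. The procedure was tested on simulated data. Those data held no GC trend and no library set apart, so that test does not cover such features of overexpression 1.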

Additional observations from a re-analysis of the deposited data

How the results depend on the processing

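In all 17 alternatives 0 of the 9 genes passed, and the members' median log2 fold change stayed negative, between -0.13 and -0.03. Each of these medians lay within 1 SD between replicates (0.11) of the median reported. That SD includes overexpression 1, where the median deviation of the 9 was -0.21, against 0.02 to 0.09 in the other libraries. It is thus a wide yardstick and does not show that the median was stable. HLA-B, HLA-C, HLA-E and HLA-F remained negative and NLRC5 positive in all 17. The number of genes passing over the whole table was 13 with DESeq2, 0 to 4 when 1 library was left out (4 without overexpression 1, 2 without overexpression 2) and 0 otherwise. The smallest adjusted p of a member under any alternative was 0.434, for HLA-C without overexpression 3 (range 0.434 to 1).

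The sign of 4 members changed. The log2 fold change of B2M was -0.0131 with library quality weights in voom and -0.0098 with the GC offset, and ran from -0.0439 (without overexpression 1) to 0.33 over the fits that left out 1 library. Upper-quartile scaling gave -0.0144 for TAP1, whose values with a library left out ran from -0.0225 (without control 3) to 0.0683. TAP2 ran from -0.19 to 0.0388 (without overexpression 1), and TAPBP from -0.15 to 0.13 (without overexpression 3). TAPBP was 0.0217 with the quality weights and 0.0226 with the GC offset. The cause of these changes was not tested.

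The labels do not say whether replicate numbers pair the libraries. Same-numbered libraries had deviations correlated at -0.03, 0.04 and 0.07 across genes. Control 1 correlated best with overexpression 3 (0.02) and control 2 with overexpression 1 (0.06), but control 3 did so with overexpression 3 (0.07). Values this small, from centred groups of 3, cannot decide whether libraries were paired. With the replicate block, 0 genes and 0 members passed, genes at an unadjusted p under 0.05 went from 611 to 438, and the members' median was -0.10. The standard error of each member was lower with the block, for TAPBP 0.10 in place of 0.17. Summing rows that share a symbol left the members' values as they were (median -0.09). The number of libraries, 3 a group, limits what could be detected.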
